A study of Mus musculus with 6 samples.

Results

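The mRNAs of 10 Polycomb complex genes (Ezh1, Ezh2, Eed, Suz12, Jarid2, Rnf2, Ring1, Bmi1, Pcgf6 and Cbx2) were examined in mouse oocytes with and without Lsm14b. They were taken by gene symbol from an expression table of 24255 genes, and all 10 symbols were found. Transcript levels had been measured by RNA-Seq in fully-grown oocytes (FGOs) at the germinal vesicle (GV) stage, which are immature oocytes held in prophase of the first meiosis. There were 3 WT and 3 Lsm14b-KO libraries, each made from 20 oocytes of females that had received 5 IU of PMSG, a gonadotropin, 46 h earlier. Lsm14b-KO females were homozygous for Lsm14b tm1a(KOMP)Mbp, a knockout-first allele with a reporter-tagged insertion, and the study kept its mice on a C57BL/6J background. The allele is present in every cell of the animal and not in the oocyte alone. The labels give no age for the mice and do not say whether the libraries of a group came from separate females, so p-values measure the spread between these libraries, which may be technical.

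Polycomb proteins act in 2 kinds of complex that keep genes silent. PRC2 methylates lysine 27 of histone H3: EZH2 or its paralog EZH1 is the enzyme, EED and SUZ12 are needed for its activity, and proteins such as JARID2 bind only part of the PRC2 pool. PRC1 attaches ubiquitin to histone H2A through RNF2 (RING1B) or RING1, each paired with a PCGF protein such as BMI1 or PCGF6, and CBX proteins such as CBX2 let some PRC1 complexes bind methylated H3. In the mouse, H3K27 methylation laid down in growing oocytes is passed to the embryo, where it keeps the maternal copy of a small set of genes silent.

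In Lsm14b-KO FGOs the mRNAs of the PRC2 core moved in opposite directions. Eed and Suz12 were lower and Ezh2 was higher than in WT. Jarid2, a PRC2 cofactor with very low levels in WT, was also higher, and the PRC1 gene Bmi1 was lower. These directions held under 17 other settings of the processing. Of these 5 genes, only Jarid2 also passed the threshold (adjusted p under 0.05) in all of them. Pcgf6 was the most abundant of the 10 in both groups and its levels were lower in each Lsm14b-KO library, but it missed the threshold. Rnf2 was not called either, Cbx2 and Ezh1 were close to the detection limit, and Ring1 was listed at 0 throughout.

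The promoters of the 3 core PRC2 genes are shown because these genes encode partners in 1 complex but moved apart. The sequences are those of RefSeq (GRCm38.p6), 250 bases before to 50 bases after the start, on the strand of the gene. They lie at chr6:47594981-47595280 on the minus strand for Ezh2, at chr7:89980927-89981226 on the minus strand for Eed, and at chr11:79992856-79993155 on the plus strand for Suz12. Capitals mark an E2F motif, searched as TTTCGCGC and TTTGGCGC on both strands.
Ezh2: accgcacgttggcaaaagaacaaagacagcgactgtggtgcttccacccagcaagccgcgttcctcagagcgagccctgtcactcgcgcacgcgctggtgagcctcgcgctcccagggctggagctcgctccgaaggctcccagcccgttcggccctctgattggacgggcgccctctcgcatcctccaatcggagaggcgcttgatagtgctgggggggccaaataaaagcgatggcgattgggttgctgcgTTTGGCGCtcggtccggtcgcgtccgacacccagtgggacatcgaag
Eed: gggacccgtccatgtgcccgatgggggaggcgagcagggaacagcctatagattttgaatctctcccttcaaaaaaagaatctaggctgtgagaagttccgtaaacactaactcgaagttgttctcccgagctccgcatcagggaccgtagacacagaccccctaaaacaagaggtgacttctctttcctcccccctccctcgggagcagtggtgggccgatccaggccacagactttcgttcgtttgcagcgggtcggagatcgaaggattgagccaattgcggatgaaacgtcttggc
Suz12: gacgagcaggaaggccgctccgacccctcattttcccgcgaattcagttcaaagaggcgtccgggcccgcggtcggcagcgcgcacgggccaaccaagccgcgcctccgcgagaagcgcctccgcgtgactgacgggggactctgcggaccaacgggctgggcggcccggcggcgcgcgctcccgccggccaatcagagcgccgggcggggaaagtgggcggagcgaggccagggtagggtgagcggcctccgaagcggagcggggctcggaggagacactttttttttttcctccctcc
RefSeq promoters were found for 9 of the 10 genes, and not for Cbx2. Of these 9 genes Ezh2 alone held an E2F motif, which 267 of all 32851 promoters (0.813%) contain. The 3 windows also differed in CpG content, with 31 CpG in Ezh2, 17 in Eed and 41 in Suz12, against a median of 7 over all promoters. Both E2F motifs contain a CpG, and no share over promoters of like CpG content was computed, so the motif is not read as rare. A motif match is a description of the sequence only, and its part in the change of Ezh2 was not tested.

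Expression is given as FPKM, which divides the fragments of a gene by the length of its transcript and by library depth, so levels can be compared between genes. A gene was tested when any 1 of the 6 libraries had 1 FPKM or more of it. The test was limma on log2(FPKM + 1), and the p-values were adjusted over all 6398 tested genes. Each fold change below is the Lsm14b-KO minus WT difference on that log2 scale, which understates the change of genes near 1 FPKM. A gene was called at an adjusted p under 0.05. Over all genes 21.6% were called, 6.38% higher and 15.2% lower in Lsm14b-KO FGOs, and in 45.0% the values of the 2 groups did not overlap.

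The targeted gene, Lsm14b, was listed at 0, 0 and 0.102 FPKM in the Lsm14b-KO libraries, against 2.77, 3.98 and 1.72 FPKM in WT. It was called lower in limma (-1.85, SE 0.25, adjusted p = 0.0038). From the steps of low FPKM values, the depth in units of 1e6 fragments was estimated at 3.73 to 4.26 in WT and at 4.94 to 8.04 in Lsm14b-KO. The FPKM of all genes summed to 1141324 to 1244182 in WT and to only 564671 to 1029728 in Lsm14b-KO, so a common scaling of the libraries moves fold changes upward. With the libraries brought to an equal sum (TPM), the median over all tested genes moved by 0.48, and 63.2% of the calls were higher in Lsm14b-KO FGOs instead of 29.5%. That share was 42.4% after quantile normalization, with a shift of 0.14, and 45.1% after a correction for transcript length and GC content, with a shift of 0.18. All 12 oocyte markers were expressed, and 2 of them, Nobox and Kit, were called higher in Lsm14b-KO. Oosp1 was lower in each Lsm14b-KO library than in each WT library but was not called (limma adjusted p = 0.191). The remaining oocyte markers overlapped between the groups. Granulosa and cumulus cell markers summed to 9.91 to 13.6 FPKM in WT and 6.63 to 11.0 in Lsm14b-KO libraries. Of these 12 markers 4, including Foxl2 and Amh, were at 0 in all libraries, and 3 were tested. Cyp19a1, which makes up most of the sum, was called lower in Lsm14b-KO, at 11.5, 8.26 and 10.5 FPKM in WT and 5.47, 3 and 5.76 FPKM in Lsm14b-KO. Some other markers of these cells had higher values in each Lsm14b-KO library than in each WT library. These were Fshr with a mean of 0.852 against 1.94 FPKM (limma adjusted p = 0.0923) and Kitl with 0.223 against 0.503 FPKM. Hsd3b1 also rose, from 0 in WT to 0.464 to 0.826 FPKM in Lsm14b-KO. Star went the other way without overlap, with a mean of 0.103 FPKM in WT and 0.0387 FPKM in Lsm14b-KO. Inha, Has2 and Nr5a2 overlapped between the groups. The 7 red blood cell markers in the table were at 0 in all libraries. The part of these differences in the results below was not tested. In pooled oocytes, fewer cells with an mRNA and less mRNA per cell cannot be told apart. The RNA was amplified from the poly(A) tail, so a change of tail length cannot be told from a change of amount either.

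Ezh2 (chr6:47530139-47595341, minus strand, GRCm38 with GENCODE vM21 annotation) encodes the methyltransferase of PRC2. Its levels were 2.85, 2.96 and 2.05 FPKM in WT and 5.23, 5.15 and 6.27 FPKM in Lsm14b-KO libraries. Each Lsm14b-KO library was thus above each WT library. The mean rose from 2.62 ± 0.497 to 5.55 ± 0.628 FPKM (SD, n = 3), a ratio of 2.12. The log2 fold change was 0.86 (SE 0.21, 95% interval 0.38 to 1.34), with an adjusted p of 0.0259 in limma. The values rest on about 22 to 35 fragments per library in WT and 72 to 141 in Lsm14b-KO. The adjusted p of limma ranged from 0.0146 to 0.111 over 17 other settings. It was past the threshold without Lsm14b-KO replicate 1 or 2, and missed it without any 1 of the WT libraries or without Lsm14b-KO replicate 3 (0.0848 to 0.111).

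Ezh1, the paralog of Ezh2, stayed under the minimum and was not tested. It was listed at 0.191, 0.335 and 0.185 FPKM in WT and at 0.144, 0.523 and 0.235 FPKM in Lsm14b-KO, which is about 3 to 16 fragments per library. The groups overlapped, and Ezh2 was above Ezh1 in each of the 6 libraries. Ezh1 lies at chr11:101191115-101226463 on the minus strand.

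Eed (chr7:89954654-89980983, minus strand) encodes the subunit that binds methylated H3K27 and stimulates the enzyme. It stood at 39.5, 36 and 29 FPKM in WT and at 17.1, 5.68 and 9.38 FPKM in Lsm14b-KO. The groups did not overlap, and the Lsm14b-KO libraries were themselves spread, with replicate 1 highest and replicate 2 lowest. The mean fell from 34.8 ± 5.35 to 10.7 ± 5.84 FPKM (SD, n = 3) and was 3.25-fold lower. The log2 fold change was -1.72 (SE 0.38, 95% interval -2.6 to -0.84; limma adjusted p = 0.0202). The adjusted p in limma ranged from 0.00139 to 0.0949 over the other settings. Eed was past the threshold without Lsm14b-KO replicate 1 or 2, and missed it without any 1 WT library or without Lsm14b-KO replicate 3 (0.0668 to 0.0949). Another gene that the annotation places over Eed on the same strand, E230029C05Rik, was listed at 0 in all libraries.

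Suz12 (chr11:79993106-80034123, plus strand) encodes the scaffold subunit of PRC2. Its levels were nearly constant within each group, at 10.1, 10.5 and 10.6 FPKM in WT and 4.31, 4.25 and 4.16 FPKM in Lsm14b-KO. All Lsm14b-KO libraries were below all WT libraries. The mean fell from 10.4 ± 0.242 to 4.24 ± 0.0769 FPKM (SD, n = 3), 2.46-fold lower, and the log2 fold change was -1.12 (SE 0.2, 95% interval -1.58 to -0.66). The adjusted p was 0.0092 in limma and ranged from 0.00315 to 0.171 over the other settings. On the log2 scale the SD of Suz12 among Lsm14b-KO libraries was 0.021, where the median tested gene had 0.37. The values rest on about 165 to 196 fragments per library in WT and 93 to 146 in Lsm14b-KO. A spread this small is therefore not read as a trait of the gene. Without WT replicate 2 or Lsm14b-KO replicate 3 the adjusted p in limma was 0.0554 and 0.0573. Under TPM scaling it was 0.171 with a log2 fold change of -0.52, which is -0.92 once the median over the tested genes is subtracted.

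Jarid2 (chr13:44729474-44921643, plus strand) encodes a DNA-binding cofactor that helps to recruit PRC2. It was below 1 FPKM in each WT library, with 0.876, 0.538 and 0.767 FPKM. In Lsm14b-KO it reached 2.51, 4.16 and 3.72 FPKM, so that the groups were well apart. The mean was 0.727 ± 0.172 in WT and 3.46 ± 0.854 FPKM in Lsm14b-KO (SD, n = 3), a ratio of 4.76. These values correspond to about 14 to 20 fragments in WT and 74 to 181 in Lsm14b-KO. In log2 units the difference was 1.36 (SE 0.22, 95% interval 0.85 to 1.86; limma adjusted p = 0.00625). It was called under all 17 other settings, with a log2 fold change of 1.11 to 2.23 and an adjusted p of 0.00155 to 0.0461 in limma. Jarid2 passed the filter only through its Lsm14b-KO values, so a gene kept in this way had to differ.

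**Figure D1:**
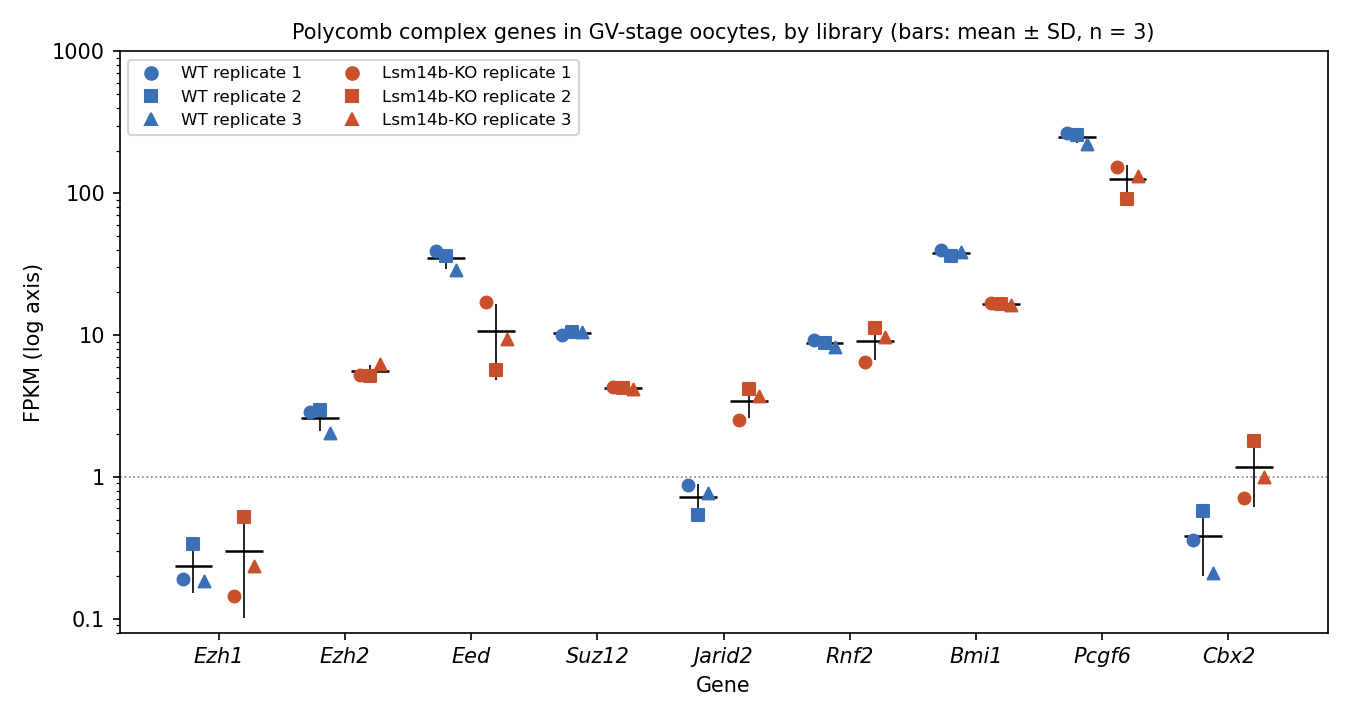
FPKM of 9 Polycomb complex genes in each library (y axis, log scale; x axis, genes), with WT in blue, Lsm14b-KO in red, a marker shape per replicate and black bars for the mean ± SD. Ring1, listed at 0 in all libraries, cannot be drawn on a log axis; Suz12 and Bmi1 were nearly constant within each group, and Jarid2 crossed the 1 FPKM line (dotted) only in Lsm14b-KO.

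Rnf2 (chr1:151458004-151500955, minus strand) encodes RING1B, the ubiquitin ligase of PRC1. It stood at 9.21, 8.78 and 8.23 FPKM in WT and at 6.51, 11.2 and 9.69 FPKM in Lsm14b-KO. Of the Lsm14b-KO libraries, replicate 1 was below and the others were above all WT libraries. The means were 8.74 ± 0.493 and 9.14 ± 2.41 FPKM (SD, n = 3), and the log2 fold change was 0.03 (SE 0.26, 95% interval -0.56 to 0.62; limma adjusted p = 0.935). The interval includes changes of up to 0.62 in size, so a moderate change cannot be told from none. The fold change had either sign when single libraries were left out (-0.12 to 0.23), and was 0.67 under TPM scaling and 0.31 after quantile normalization, or 0.27 and 0.24 with the median over the tested genes subtracted (limma adjusted p 0.209 to 0.99 over all settings).

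Ring1, the paralog of Rnf2 (chr17:34020792-34024680, minus strand), was listed at 0 FPKM in all 6 libraries and was not tested. A listed 0 in such a table can also be an estimate that failed.

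Bmi1 (chr2:18677018-18686629, plus strand) encodes PCGF4, the partner of RNF2 in canonical PRC1. Its levels were 39.7, 36.2 and 38.4 FPKM in WT and 16.8, 16.6 and 16.3 FPKM in Lsm14b-KO. Like those of Suz12, they did not overlap and hardly varied among Lsm14b-KO libraries (SD 0.021 on the log2 scale). With about 299 to 472 fragments per Lsm14b-KO library, the limit given for Suz12 holds here too. The mean fell from 38.1 ± 1.77 to 16.6 ± 0.257 FPKM (SD, n = 3) and was 2.30-fold lower. On the log2 scale it changed by -1.15 (SE 0.24, 95% interval -1.7 to -0.61; limma adjusted p = 0.0153). Over the other settings the adjusted p in limma ranged from 0.00284 to 0.2. It was past the threshold without Lsm14b-KO replicate 1 or 2 and missed it without any 1 WT library or without Lsm14b-KO replicate 3 (0.0628 to 0.0793). Under TPM scaling it was 0.2 with a log2 fold change of -0.49, or -0.89 after the same subtraction, and after quantile normalization it was 0.0534. Reads of Bmi1 could be shared with a near-identical processed pseudogene, Gm5946, so its level is less certain.

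Pcgf6 (chr19:47033617-47050906, minus strand) encodes the PCGF subunit of a variant PRC1 that represses germline genes in embryonic stem cells. It had 268, 257 and 222 FPKM in WT and 154, 91.6 and 133 FPKM in Lsm14b-KO. Its groups did not overlap, and Lsm14b-KO replicate 1 was nearest to WT. The means were 249 ± 23.9 and 126 ± 31.7 FPKM (SD, n = 3), 1.98-fold lower in Lsm14b-KO. Its log2 fold change was -1.01 (SE 0.31, 95% interval -1.72 to -0.29), and the adjusted p of 0.0532 in limma missed the threshold. It was past the threshold in 6 of the 17 other settings, with a limma adjusted p between 0.00673 and 0.283, and the lowest of these was reached when Lsm14b-KO replicate 1 was left out.

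Cbx2 (chr11:119022962-119031270, plus strand) encodes a chromodomain protein of canonical PRC1. It had 0.362, 0.572 and 0.211 FPKM in WT and 0.709, 1.79 and 1.00 FPKM in Lsm14b-KO. The groups did not overlap, but these are about 3 to 9 fragments per library in WT and 13 to 49 in Lsm14b-KO. In log2 units this was a difference of 0.63 (SE 0.24, 95% interval 0.07 to 1.19; limma adjusted p = 0.0981). It was called in 1 of the 16 other settings that tested it, without Lsm14b-KO replicate 1 (limma adjusted p = 0.033, range 0.033 to 0.232). Cbx2 too was kept by the filter only because of its Lsm14b-KO values.

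Of the 10 genes, 8 were tested and 5 were called, 2 higher and 3 lower, where 21.6% of all tested genes were called, 6.38% higher and 15.2% lower. Since Jarid2 and Cbx2 entered through the high group, no share over the tested genes is read from this. For the same reason their median log2 fold change of -0.49 (-0.08 over all tested genes) is a description only, and it was 0.18 under TPM scaling and 0.03 without a filter. Reads from genes on the other strand within Ezh2, Eed, Suz12, Jarid2 and Rnf2 cannot be told apart here, because the strandedness of the libraries was not stated. Trmt1l, which overlaps the end of Rnf2, had at most 0.472 FPKM.

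**Figure D2:**
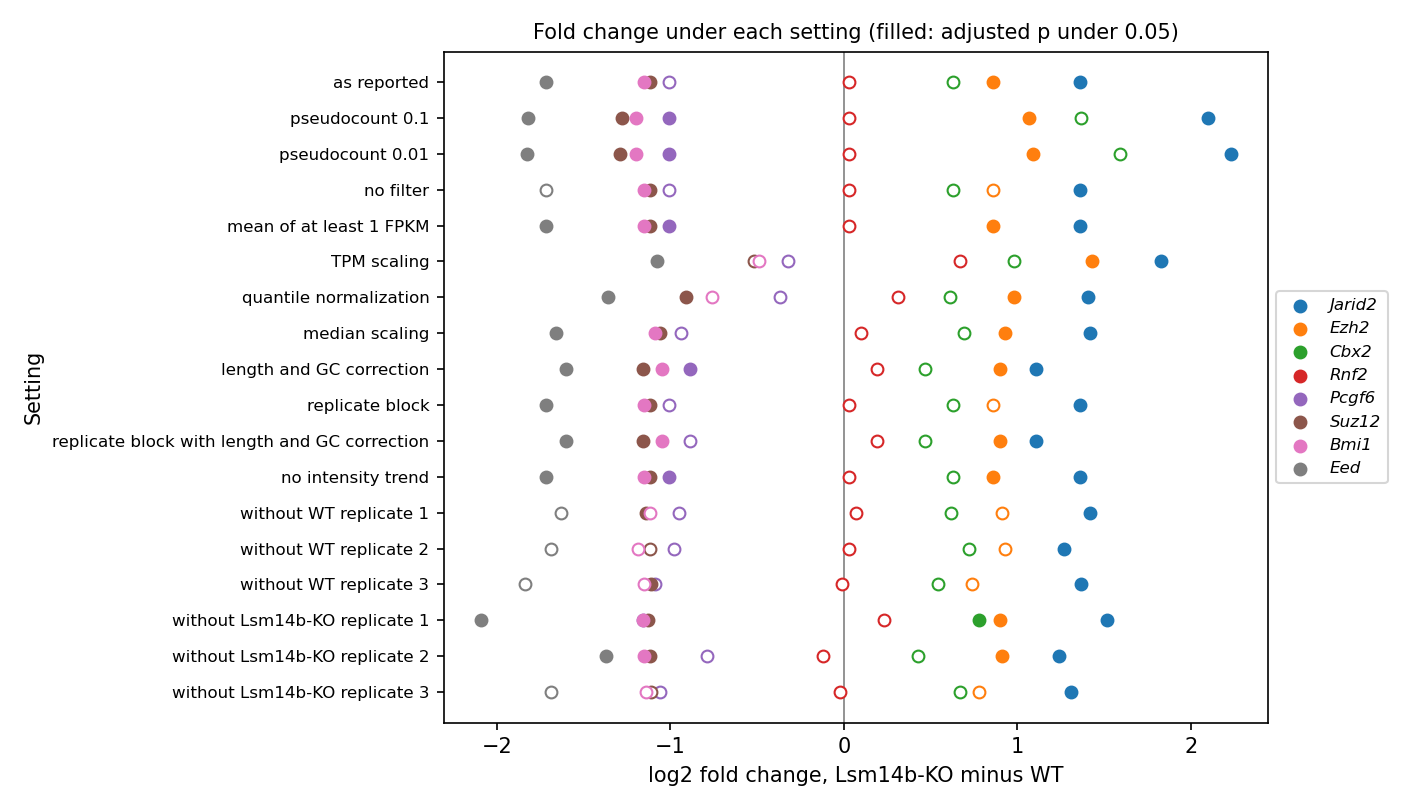
Log2 fold change (x axis, Lsm14b-KO minus WT) of the 8 tested Polycomb complex genes as reported and under each of 17 other settings (y axis); filled points had an adjusted p under 0.05 in limma. Jarid2 and Ezh2 stayed to the right of 0 and Eed, Suz12, Bmi1 and Pcgf6 to the left in all settings, whereas Rnf2 lay on both sides.

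The order of the levels changed between groups. In WT, Pcgf6 was highest, followed by Bmi1 and Eed, whose values overlapped, then Suz12, Rnf2 and Ezh2, each apart from the next, and at the end Jarid2, Cbx2 and Ezh1 with overlapping values. In Lsm14b-KO, Pcgf6 was again highest, Bmi1, Eed and Rnf2 followed with overlap between neighbours, and Ezh2 now lay above Suz12. In Lsm14b-KO the highest Jarid2 value met the lowest Suz12 value, whereas in WT these genes were far apart.

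Ratios within a library do not depend on its scaling, and 6 were computed. A bias by transcript length or GC content that differs between libraries need not cancel in them, and no ratio was corrected for it. The ratio of Eed to Ezh2 was 13.9, 12.2 and 14.2 in WT and 3.27, 1.1 and 1.5 in Lsm14b-KO. That of Suz12 to Ezh2 was 3.56, 3.56 and 5.17 in WT and 0.824, 0.825 and 0.663 in Lsm14b-KO. There was thus more Suz12 than Ezh2 mRNA per length in each WT library and less in each Lsm14b-KO library. The ratio of Jarid2 to Suz12 was 0.0864, 0.0511 and 0.0725 in WT and 0.583, 0.98 and 0.895 in Lsm14b-KO. The ratio of Bmi1 to Rnf2 was 4.32, 4.12 and 4.67 in WT and 2.58, 1.47 and 1.68 in Lsm14b-KO, and that of Pcgf6 to Rnf2 was 29.1, 29.3 and 27 in WT and 23.6, 8.15 and 13.7 in Lsm14b-KO. For each of these 5 pairs of genes the groups did not overlap, and the two-sided exact permutation p was 0.10, the smallest that 3 against 3 libraries can give. The sixth ratio, Eed to Suz12, overlapped between groups, with 3.90, 3.42 and 2.74 in WT and 3.97, 1.34 and 2.26 in Lsm14b-KO (exact permutation p = 0.40). No adjusted p over the 6 ratios could fall below that limit. Eed and Suz12 were lower, and Ezh2 and Jarid2 higher, in each Lsm14b-KO library than in each WT library. The ratios of Eed to Ezh2, Suz12 to Ezh2 and Jarid2 to Suz12 therefore had to separate. Bmi1 and Pcgf6 fell by more than the range of Rnf2 could offset, so their ratios to Rnf2 had to separate too. None of these 5 ratios adds support to the differences of the single genes. No share over other pairs of genes was computed, so the count of 5 pairs is a description only.

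**Figure D3:**
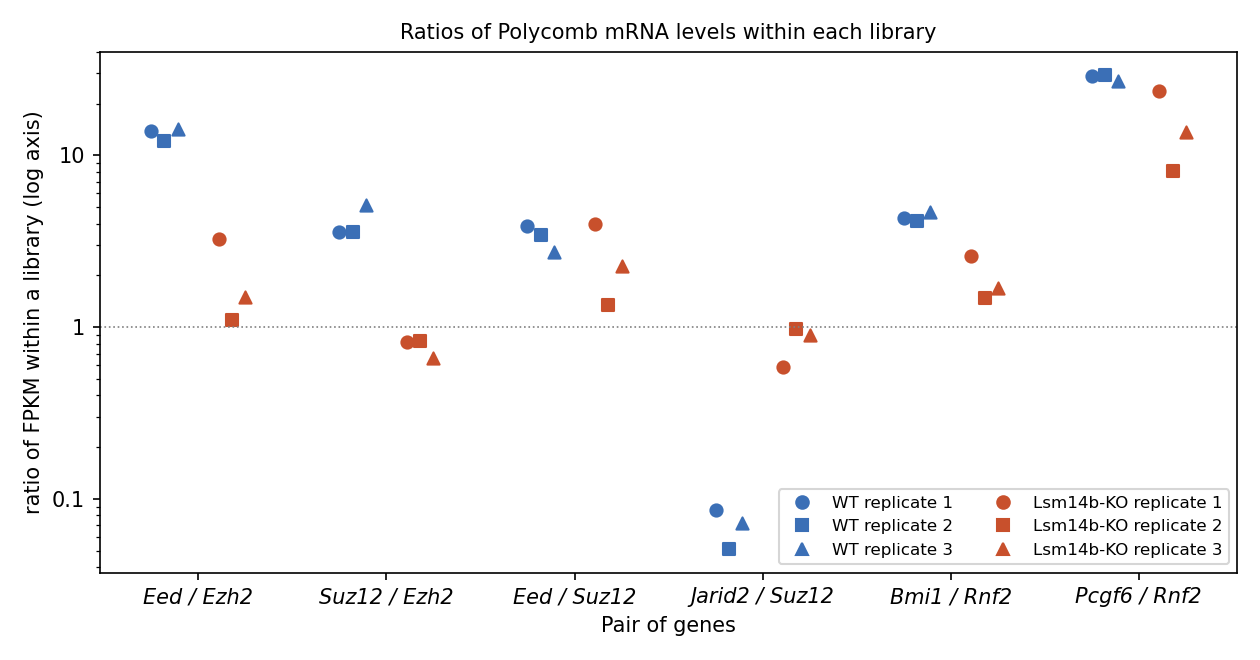
Ratio of the FPKM of pairs of Polycomb complex genes within each library (y axis, log scale; x axis, pairs of genes; WT in blue, Lsm14b-KO in red, a marker shape per replicate). The groups overlap for Eed to Suz12 only, and the ratio of Suz12 to Ezh2 lies above 1 (dotted line) in WT and below it in Lsm14b-KO.

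The other subunits and the enzymes that remove the marks were examined next. Of 43 other Polycomb genes, 21 were tested and 4 were called, 1 higher and 3 lower, where 21.6% of all tested genes were called. Of the 21, Scml2 and Rybp passed the filter through WT libraries only, and 6 (Lcorl, Phc1, Phc2, Mga, Bap1 and Mysm1) through Lsm14b-KO libraries only, so no share is read from this count either. Among 9 other PRC2 genes, 5 were tested and 2 were called, both lower. Aebp2, a DNA-binding PRC2 accessory protein, had 5.32, 6.35 and 5.4 FPKM in WT and 2.95, 0.57 and 1.29 FPKM in Lsm14b-KO, without overlap (-1.46, SE 0.33, limma adjusted p = 0.0207). Mtf2, a Polycomb-like protein that brings PRC2 to CpG islands, had 3.98, 2.58 and 3.35 FPKM in WT and 2.05, 0.871 and 1.21 FPKM in Lsm14b-KO (-0.87, SE 0.25, limma adjusted p = 0.0413). Both were lower in each Lsm14b-KO library than in each WT library. Aebp2 missed the threshold without any 1 WT library or Lsm14b-KO replicate 3 (limma adjusted p 0.0797 to 0.0932, and 0.00153 to 0.0932 over all settings). Mtf2 was called without Lsm14b-KO replicate 1 and in no other fit with 1 library left out, with a limma adjusted p of 0.00878 to 0.193 over all settings. Rbbp7, a histone-binding subunit shared with other complexes, was the most abundant of these genes, with 443, 444 and 498 FPKM in WT and 302, 401 and 433 FPKM in Lsm14b-KO (-0.30, SE 0.29, limma adjusted p = 0.449). That direction turned under TPM scaling (0.39) and quantile normalization (0.50). Its paralog Rbbp4 stayed below 1 FPKM in each library. Reads of Rbbp7 could be shared with a near-identical copy, Gm6382.

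AU022751, the mouse gene for the PRC2 inhibitor EZHIP, was looked up after its values had been seen. Its levels were 72, 95 and 72.7 FPKM in WT and 26.9, 60.2 and 29.1 FPKM in Lsm14b-KO. The groups did not overlap, but the log2 fold change of -1.11 (SE 0.37) missed the threshold (limma adjusted p = 0.0646, and 0.016 to 0.498 over the other settings). The limma adjusted p was 0.016 when Lsm14b-KO replicate 2, the highest of that group, was left out.

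Of 25 other PRC1 genes, 10 were tested, 1 was called higher and 1 lower, where 6.38% of all tested genes were called higher and 15.2% lower. Some of these 10 passed the filter through 1 group only, so no share is read from this. Scml2, a germline PRC1-associated protein, had 5.71, 5.21 and 4.61 FPKM in WT and 0.767, 0.348 and 0.365 FPKM in Lsm14b-KO. The groups lay far apart, with a mean of 5.18 ± 0.547 against 0.493 ± 0.237 FPKM (SD, n = 3), 10.5-fold lower. The log2 fold change was -2.06 (SE 0.2, limma adjusted p = 0.00121), and Scml2 was called under all 17 other settings. Scml2 passed the filter only through its WT values, so the limit given for Jarid2 holds for it in the other direction. Usp7, a deubiquitinase found in variant PRC1, had 0.679, 0.937 and 1.23 FPKM in WT and 1.65, 4.63 and 2.84 FPKM in Lsm14b-KO (0.99, SE 0.29, limma adjusted p = 0.0467). It was called in 8 of the 17 other settings, and with 1 library left out only without Lsm14b-KO replicate 1 (limma adjusted p 0.00685 to 0.16 over the settings). Pcgf1, the PCGF subunit of the KDM2B complex, had 356, 281 and 206 FPKM in WT and 384, 93.4 and 144 FPKM in Lsm14b-KO (-0.66, SE 0.52, limma adjusted p = 0.358). Lsm14b-KO replicate 1 was above all WT libraries and the other Lsm14b-KO libraries were below them. Reads of Pcgf1 could be shared with a near-identical copy, Gm8930, and those of Usp7 with AC110375.1. Without replicate 1 the fold change of Pcgf1 was -1.24 with a limma adjusted p of 0.0156 (0.0156 to 0.978 over the settings), and under TPM scaling it was 0.03. Yaf2, a subunit of variant PRC1, had 24.3, 18.9 and 20.5 FPKM in WT and 19.3, 23.9 and 22.0 FPKM in Lsm14b-KO, with overlap (0.03, SE 0.25, limma adjusted p = 0.926), and its sign turned without WT replicate 2 or Lsm14b-KO replicate 2 (-0.04). The fold change of Yaf2 was 0.70 under TPM scaling and 0.43 after quantile normalization, or 0.30 and 0.36 with the median over the tested genes subtracted, and it was not called in limma under any setting (adjusted p 0.134 to 0.983).

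Of 7 H2A deubiquitinase genes, 4 were tested and none was called in limma, with 1 at an unadjusted p under 0.05. With so few genes, and 21.6% of all tested genes called, no share is read from this. Neither of the H3K27 demethylase genes was called in limma, and 0 had an unadjusted p under 0.05. Kdm6b, one of these, was uneven among Lsm14b-KO libraries, with 1.57, 59.9 and 21.0 FPKM against 2.28, 2.59 and 6.70 FPKM in WT. It was named after its values had been seen. The log2 fold change was 1.75 (SE 1.01, limma adjusted p = 0.225), and without Lsm14b-KO replicate 1 it was 3.03 with a limma adjusted p of 0.00467 (0.00467 to 0.569 over the settings).

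**Figure D4:**
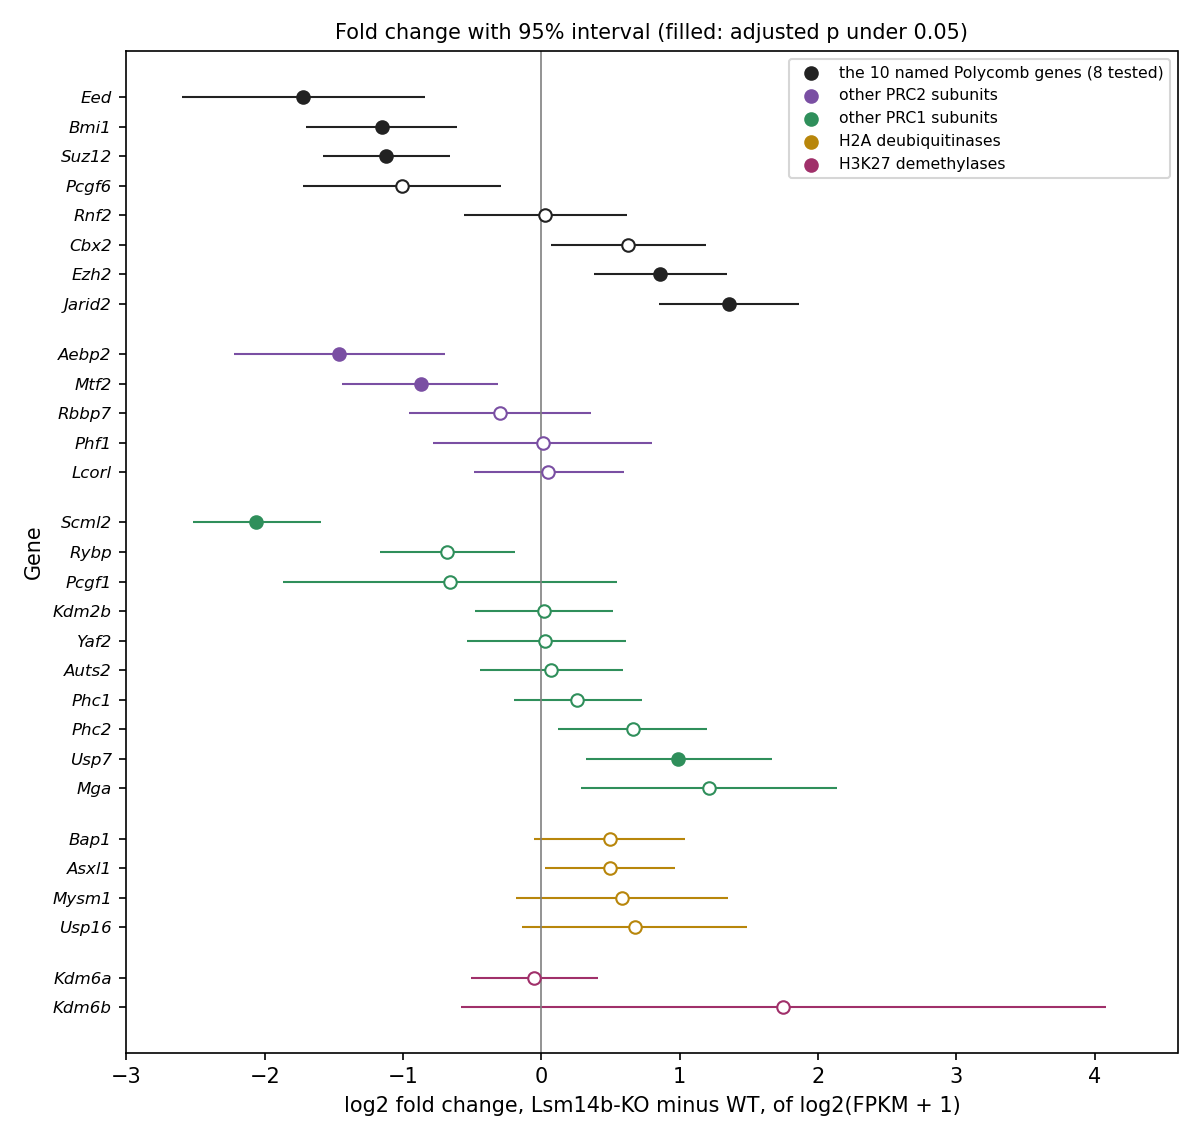
Log2 fold change (x axis, Lsm14b-KO minus WT, of log2(FPKM + 1)) with its 95% interval for the 8 tested Polycomb complex genes and 21 other tested Polycomb genes (y axis), in colours by group; filled points had an adjusted p under 0.05 in limma. Eed, Bmi1, Suz12, Aebp2, Mtf2 and Scml2 lie below 0 and Ezh2, Jarid2 and Usp7 above it with filled points, and Kdm6b has the widest interval.

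Genes known from other tissues and embryos as Polycomb targets were hardly detected in either group. Of 7 loci with maternal H3K27me3 imprints, none reached the minimum, and the highest value was 0.0846 FPKM. Of 39 Hox genes, 34 were listed at 0 in all libraries and 1 was tested. This was Hoxa7, with 0.45, 1.05 and 1.02 FPKM in WT and 0.112, 0.154 and 0.688 FPKM in Lsm14b-KO (-0.49, SE 0.25, limma adjusted p = 0.183), and its groups overlapped. It passed the filter through WT libraries only. Among 18 other developmental genes 12 were at 0 in all libraries, and the highest value was 0.496 FPKM. A rise of such genes to 1 FPKM was not seen in any Lsm14b-KO library. The study describes oocyte transcription as ceasing toward the end of growth, so these values do not test whether such genes stayed silenced after that. For the growth phase they show only the mRNA still present at the GV stage, and silencing during growth was not tested.

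The 3′ UTRs of the members were searched for CCTCTC (DNA letters, on the sense strand), a hexamer linked to LSM14B-bound sites by the study. It occurred in Ezh1 and Cbx2, at 2 and 4 sites, and in none of the 5 called genes. Of the called genes, Ezh2 and Eed have 3′ UTRs of only 402 and 283 bases, so no result is read from their lack of it. Among the 7 of the 10 genes whose 3′ UTR has 1000 to 2500 bases, 2 held the hexamer, against 39.2% of the 1702 tested genes in that range. Ezh1, 1 of these 2, was itself not tested. The Cbx2 sites are shown with flanks because that gene held the most, each in GRCm38 on the plus strand with the hexamer in capitals.
Cbx2 site at chr11:119029279-119029308: ctgctgattctaCCTCTCtgggcctccact
Cbx2 site at chr11:119029819-119029848: agtgaccctgttCCTCTCtgggtctggacc
Cbx2 site at chr11:119030174-119030203: ttccctgacaatCCTCTCccacatttggga
Cbx2 site at chr11:119031090-119031119: tacaaatcctttCCTCTCagccactttgcc
These are matches of letters in the annotated transcript, and whether LSM14B binds them was not tested here. The study mapped LSM14B binding in oocytes by LACE-Seq, a crosslinking method, and placed a minority of the sites in 3′ UTRs. Its list of bound mRNAs was not compared with these genes. A 3′ UTR without the hexamer thus does not show that an mRNA is unbound.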

How the data were processed

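Gene expression of 3 WT and 3 Lsm14b-KO libraries of GV-stage FGOs was analysed, grouped by genotype label. Per the labels, RNA was amplified by Smart-seq2, which primes from the poly(A) tail, so the values cover polyadenylated mRNA. The library kit is named differently in different places, and strandedness is not stated. The authors aligned the reads to mm10 (TopHat2 2.0.13), and the deposited values are FPKM from Cufflinks 2.2.1, with an annotation that is not given in the sources used here. The deposited log2 fold change, p-value and q-value columns hold the authors' own comparison and were not used.

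A pseudocount of 1 was added before taking log2. Every gene that had 1 FPKM or more in any library was fitted with limma 3.58.1 in R 4.3.3 (eBayes with an intensity trend, genotype as the only term, two-sided), with Benjamini-Hochberg adjustment over 6398 genes. The fit was tested on simulated data. The table holds no counts, so fragment numbers and depth are estimates from the steps of FPKM in genes with transcripts of at least 3000 bases. Of the low values, 74.0 to 78.1% came within 0.15 of a whole fragment, so no count model was used. Coordinates, transcript length and GC content are from GENCODE vM21 (GRCm38), and near-identical copies were found with blastn 2.17.0 at 95% identity over at least 200 bases. Another 17 settings were tried: pseudocounts of 0.1 and 0.01, other filters and scalings, a length and GC correction, a replicate block, no intensity trend, and each library left out in turn. Median scaling was added after seeing the data.

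The members and the gene lists (other Polycomb genes, target loci, cell type markers) were chosen with earlier results of these data known. Named were the 10 members and Lsm14b, and from the lists the called genes, the 3 most abundant, and any target locus with at least 1 FPKM in a library. AU022751 and Kdm6b were added after their values were seen.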

Additional observations from a re-analysis of the deposited data

How the results depend on the processing

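Directions of Ezh2, Eed, Suz12, Jarid2, Bmi1, Pcgf6 and Cbx2 held under every setting that tested them, and Jarid2 was called in all 17. All settings draw on the same 6 libraries, so their agreement is not independent support. With the filter kept as reported, Jarid2 and Cbx2 were tested only because of their Lsm14b-KO values. As reported, 1383 genes, 5 of the 10 members and 4 other Polycomb genes were called, with a median log2 fold change of the members of -0.49. Without a filter (14325 genes tested, with Ezh1 among them) these were 720, 3, 1 and 0.03. TPM scaling gave 3 members and a median of 0.18, and quantile normalization 2 other Polycomb genes and a median of -0.03. A mean of at least 1 FPKM moved the median to -1.01, with Cbx2 no longer tested. Without the intensity trend, 2 other Polycomb genes were called. With 1 library left out, 315 to 2898 genes, 1 to 7 members and 1 to 10 other Polycomb genes were called, and the median was -0.55 to -0.44. The most calls came without Lsm14b-KO replicate 1 and the fewest without replicate 3. Rnf2 then ranged from -0.12 to 0.23 and Yaf2 from -0.04 to 0.13. Rbbp7 turned to 0.39 under TPM scaling and 0.50 after quantile normalization, and Pcgf1 to 0.03 under TPM scaling. Apart from the construction of the filters and of the fits with fewer libraries, the cause of these shifts was not tested.

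The values gave no sign that the replicate numbers pair the samples. Deviations from the group means correlated at 0.19, -0.128 and 0.018 for the same numbers and at -0.275 to 0.306 for different numbers. How the samples were collected cannot be read from these correlations. With a replicate block, 1244 genes and 4 members were called, and the log2 fold change of Ezh2 stayed at 0.86 while its limma adjusted p became 0.0503. With the block and the length and GC correction together, 1355 genes and 5 members were called.

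Depth limits Ezh1 and Cbx2 in particular, with 16 or fewer fragments for Ezh1 and 9 or fewer for Cbx2 in WT.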
